A study of Mus musculus with 8 samples.

Results

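Pax6 binding at the glucagon gene, Gcg, and at 4 genes for transcription factors of alpha cells, Irx1, Irx2, Pou3f4 and Etv1, was examined by chromatin immunoprecipitation with sequencing (ChIP-seq). The study compared mouse alphaTC1 cells given antisense oligonucleotides against Paupar (Paupar KD) with the same cells given oligonucleotides of a scrambled sequence (control KD). Each group had 2 Pax6 ChIP libraries, and the design text describes them as biological duplicates. All groups share the cell line, the Pax6 antibody of the ChIP and an oligonucleotide treatment, so no untreated cells were included. The alphaTC1 line came from a mouse tumour in which a viral oncogene was driven by a glucagon gene promoter, and it is an established line, not a set of animals. Paupar, a long non-coding RNA, has its gene beside that of Pax6, and its level was not measured here. Sites were taken if the nearest gene named by the authors was one of the 5 genes, which gave 45 of the 26244 sites listed. Irx1 had 26 sites, Etv1 had 9, Gcg had 5, Irx2 had 3 and Pou3f4 had 2.

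Pax6 is a transcription factor with a paired domain and a homeodomain, both of which contact DNA. In pancreatic islets it is needed for endocrine cells, and it binds elements of the Gcg promoter and activates Gcg. Gcg encodes proglucagon, which the convertase Pcsk2 cuts to release glucagon in alpha cells. Pou3f4, a POU homeodomain factor also called Brn4, binds the Gcg promoter as well. Irx1 and Irx2 are Iroquois homeodomain factors that mark alpha cells among islet cells, and Etv1 is an ETS-family factor. Nearness of a site to a gene is an assignment, and ChIP-seq does not measure whether the gene is expressed, so the alpha-cell label could not be checked against markers.

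In outline, 5 of the 45 sites had more Pax6 signal in Paupar KD cells than in control KD cells at a false discovery rate (FDR) below 0.05 per the authors' deposited table, and 0 had less. The higher sites were 3 of the 5 Gcg sites, 1 of the 9 Etv1 sites and 1 of the 26 Irx1 sites. Over all listed sites, 3.26% were called higher and 0.846% lower by the same rule. At an unadjusted p below 0.05 from the authors' DiffBind comparison, 16 member sites were higher and 1 was lower, where all sites had 10.7% higher and 6.67% lower. The median log2 change of the 45 sites was 0.45, and without the 3 sites listed at the lowest control KD value it was 0.11. Over all sites the median was -0.03. Gcg carried much of the count: the 40 sites of the other 4 genes held 2 called sites, 5.0%, with a median change of 0.085. The signal is the authors' mean concentration per group, read as log2, with no value per library, so its spread between replicates is unknown. Changes are Paupar KD minus control KD, the opposite sign of the deposited fold.

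**Figure D1:**
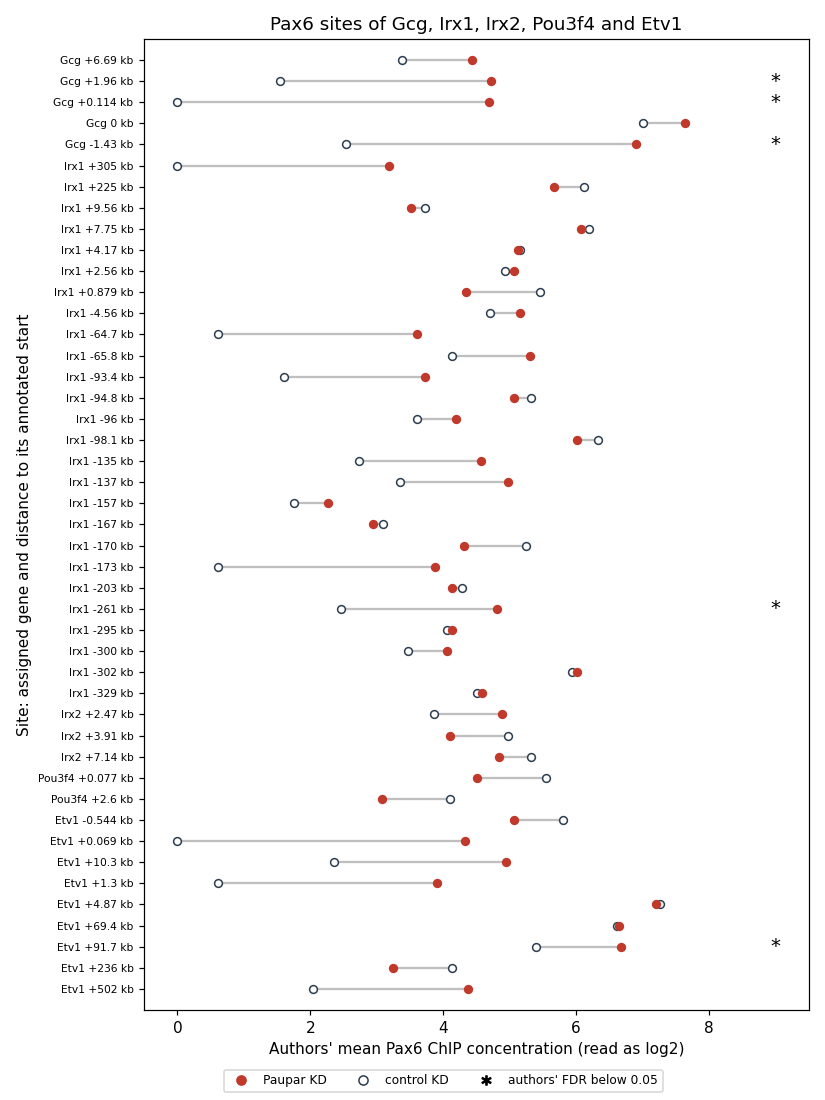
Each row is a site, labelled with its assigned gene and distance to the annotated start in kb. The x axis gives the authors' mean Pax6 concentration, read as log2, in Paupar KD cells (filled points) and control KD cells (open points); asterisks mark the 5 sites with an authors' FDR below 0.05. Long lines with a low open point belong to sites of weak control KD signal, and most of the strongest sites have both points close together, unlike the Gcg site 1.43 kb before the start and the Etv1 site at 91.7 kb.

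The glucagon gene lies on the minus strand of chromosome 2 (62474530 to 62483653, mm10), and its strongest Pax6 site covers the gene start. The mm10 build is the mouse assembly GRCm38, and the RefSeq promoter windows of GRCm38.p6 matched 4 of the 5 genes (Gcg, Irx2, Pou3f4 and Etv1, the last with 2 starts). For Gcg, Pou3f4 and the downstream start of Etv1, a listed Pax6 site overlapped the window, so the 250 bases before these starts are printed. They read 5′ to 3′ in the direction of transcription and end at the base before the start. Capitals mark the bases inside the listed 100 bp Pax6 site. The stretches are chr2:62483654-62483903 on the minus strand for Gcg, chr12:38783461-38783710 on the plus strand for Etv1 and chrX:110814129-110814378 on the plus strand for Pou3f4.
Gcg: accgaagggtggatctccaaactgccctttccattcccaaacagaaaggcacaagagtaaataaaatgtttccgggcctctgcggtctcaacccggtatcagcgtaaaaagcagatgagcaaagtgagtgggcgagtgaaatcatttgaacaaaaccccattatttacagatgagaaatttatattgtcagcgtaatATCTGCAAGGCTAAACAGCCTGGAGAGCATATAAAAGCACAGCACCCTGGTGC
Etv1: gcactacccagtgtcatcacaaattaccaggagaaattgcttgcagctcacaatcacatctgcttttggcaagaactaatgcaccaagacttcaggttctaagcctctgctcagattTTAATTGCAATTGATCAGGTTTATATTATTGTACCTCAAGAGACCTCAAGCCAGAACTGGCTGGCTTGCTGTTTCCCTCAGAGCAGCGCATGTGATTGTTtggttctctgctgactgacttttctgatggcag
Pou3f4: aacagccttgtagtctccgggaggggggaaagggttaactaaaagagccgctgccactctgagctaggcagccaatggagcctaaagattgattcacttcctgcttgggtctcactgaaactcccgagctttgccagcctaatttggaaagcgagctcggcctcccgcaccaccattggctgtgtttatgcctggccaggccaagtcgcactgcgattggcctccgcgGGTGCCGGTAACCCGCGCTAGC

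At Gcg all 100 bases of the site fell in the promoter window, 53 of them before the start. The Etv1 site lay wholly before its start, and 22 bases of the Pou3f4 site did. Motifs were searched on both strands of the windows, which run from 250 bases before to 50 bases after each start. The paired-domain core TTCACGC was in 1.26% of 32851 mouse promoter windows, and a looser paired-domain form (TTCA, any base, GC, any base, TGA), which can overlap the core, in 0.143%. The homeodomain palindromes, TAAT followed by ATTA with 2 or 3 bases between, were in 0.39% and 0.487%. None of these motifs was found in the windows of Gcg, Irx2, Pou3f4 or Etv1. The short homeodomain core TAAT, which the palindromes contain and which 58.0% of all windows hold, lay 57 bases before the Gcg start on the coding strand and 91 bases before it on the other strand. The window of the downstream Etv1 start held it at 228, 174, 132 and 109 bases before the start and 2 bases after it, and those at 132 and 109 lie within the capitals. The other Etv1 window held it at 101 and 98 bases before the start, and the Pou3f4 window at 111 bases before the start; these, and both at Gcg, lie outside the capitals.

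The Gcg start site (chr2:62483607-62483706) had concentrations of 7.64 in Paupar KD and 7.01 in control KD (p = 0.0161, FDR 0.155) per the authors' deposited table. Its mean signal ranked 467 among the 26244 sites. Each of the 4 libraries had a peak summit within 250 bp of the site's middle. Summit scores, read as −log10 q values, were 115 and 140 in the Paupar KD libraries and 109 and 64.7 in the control KD libraries. Scores from lists of different depth are not compared directly, but within its own list each summit was near the top. It stood in the top 1.56% and 1.18% of summits in Paupar KD replicates 1 and 2, and in the top 2.4% and 3.36% in control KD replicates 1 and 2. The summit of Paupar KD replicate 2 lay 49 bases after the start, and those of the control KD libraries 39 and 46 bases after it. In Paupar KD replicate 1 the summit stood instead 142 bases before the start. Over the 5250 sites with summits in all 4 libraries, 16.5% of that library's summits lay over 100 bp from the site's middle, 12.3% in Paupar KD replicate 2, and 10.6% and 13.4% in the control KD libraries.

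Upstream of the gene, a second strong Gcg site (chr2:62485081-62485180), 1.43 kb before the annotated start, had 6.90 in Paupar KD and 2.53 in control KD per the authors' deposited table, a log2 change of 4.36 (p = 0.00101, FDR 0.0317). Only 2 of the 26244 sites, this one included, had a concentration at least as high in Paupar KD and at most as high in control KD. Taken singly, a change at least as large was found at 116 sites, 25 of them not at the floor. A Paupar KD concentration at least as high was found at 816 sites. The limits of these counts were this site's own values. Summits lay here in both Paupar KD libraries, in the top 2.48% and 4.46% of their lists (scores 92.3 and 65.3), and in neither control KD library. With the start site beside it, Gcg had a pair of strong sites in Paupar KD libraries and a single one in control KD libraries.

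Inside the gene, 3.14 kb after the RefSeq start, a weaker site (chr2:62480465-62480564) was listed at 4.69 in Paupar KD and at the floor, -0.01, in control KD (p = 0.000166, FDR 0.0102) per the authors' deposited table. The authors' annotation calls it a promoter because a shorter Gcg transcript starts 114 bases before it. Both Paupar KD libraries had a summit there, with scores of 15.7 and 10.1, and no control KD library had one. A further internal site (chr2:62478621-62478720) had 4.72 in Paupar KD and 1.55 in control KD, a log2 change of 3.17 (FDR 0.02), per the authors' deposited table. Its summit was found in Paupar KD replicate 1 alone, with a score of 11.9. The last Gcg site (chr2:62473888-62473987), 0.593 kb beyond the gene end, had 4.43 in Paupar KD and 3.38 in control KD (FDR 0.551) per the authors' deposited table. Paupar KD replicate 2 alone had a summit there. All 5 Gcg sites thus had the higher value in Paupar KD cells, 3 of them with a call. Over all listed sites, 48.5% had a change above 0 and 3.26% were called higher. At 4 of the 5 Gcg sites, summits lay in Paupar KD libraries alone. Of all listed sites with such summits, 76.3% had a change above 0 and 6.62% were called higher. The 5 sites were read in the same libraries and are not replicates.

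**Figure D2:**
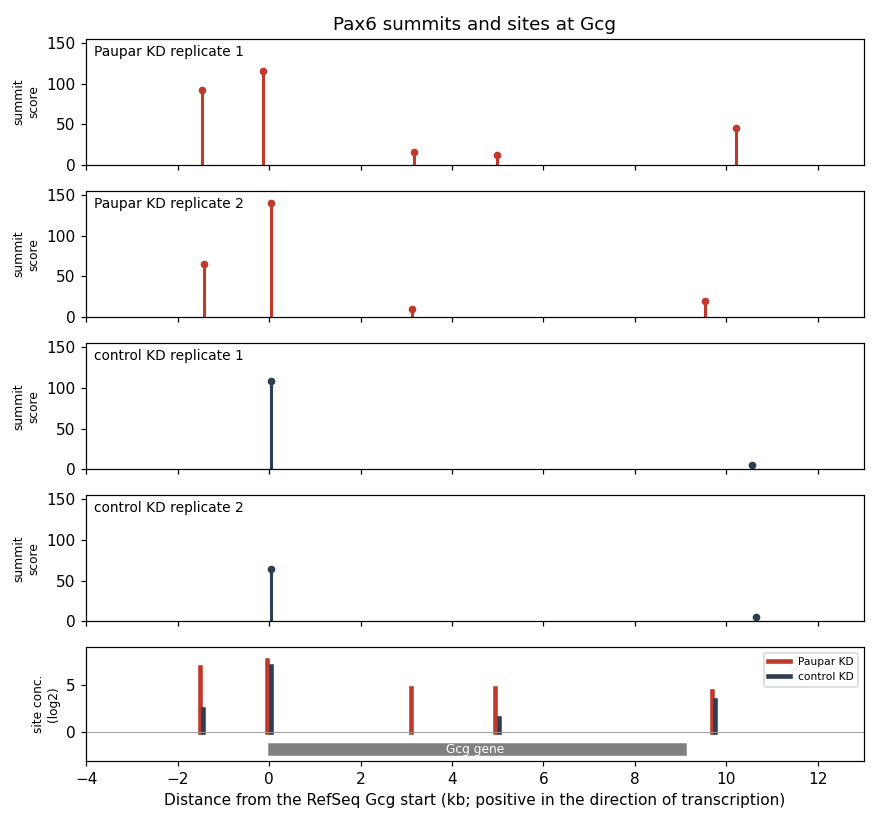
The upper panels plot summit scores (read as −log10 q) of each ChIP library against distance from the RefSeq Gcg start in kb. Distance is positive in the direction of transcription. The bottom panel gives the authors' mean log2 concentration of the 5 Gcg sites in Paupar KD and control KD cells above a bar for the gene; the site at 3.14 kb is at the floor in control KD. All libraries have a summit at the start, and only the Paupar KD libraries have one about 1.48 kb before it.

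Sites of other genes with nearly the same pair of concentrations give a scale for these values. For the Gcg start site, the nearest over both concentrations were sites assigned to Mrtfb (7.63 in Paupar KD, 6.94 in control KD), Fbp1 (7.51 and 7.09) and Zfand3 (7.78 and 6.91) per the authors' deposited table, at Euclidean distances of 0.071, 0.15 and 0.17. Each of these had summits in all 4 libraries, and their FDRs were 0.105, 0.404 and 0.0667 per the authors' deposited table. For the upstream Gcg site, the nearest were assigned to Ncoa7 (7.01 in Paupar KD, 2.75 in control KD), Schip1 (6.70 and 2.75) and Hipk2 (6.59 and 2.53) per the authors' deposited table, at distances of 0.25, 0.3 and 0.31. Their FDRs were 0.00666, 2.58e-09 and 0.21 per the authors' deposited table, so similar group means went with very different test results. The likeness rests on 2 group means only.

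Pou3f4, the POU factor that binds the Gcg promoter, had its 2 sites inside its own gene on chromosome X, and both had lower values in Paupar KD cells. The site at the start (chrX:110814357-110814456) had 4.51 in Paupar KD and 5.55 in control KD, a log2 change of -1.04 (p = 0.0338, FDR 0.231), per the authors' deposited table. This was the only member site with an unadjusted p below 0.05 in that direction, and it was not called. Summits lay there in both Paupar KD libraries, with scores of 9.05 and 3.32, and in control KD replicate 1, with a score of 13.9; control KD replicate 2 had none. The other site (chrX:110816879-110816978), 2.6 kb after the start, had 3.08 in Paupar KD and 4.11 in control KD (FDR 0.55) per the authors' deposited table, and no library had a summit within 250 bp of it.

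Etv1, the ETS factor, lies on the plus strand of chromosome 12 (38780082 to 38870483), and its 9 sites ranged from before the gene to far beyond its end. The strongest (chr12:38824414-38824513), inside the gene and annotated as an exon of a short transcript, had 7.20 in Paupar KD and 7.26 in control KD (FDR 0.953) per the authors' deposited table. Summits of all 4 libraries stood there in the top 1.74% and 1.28% of the Paupar KD lists and the top 2.71% and 2.63% of the control KD lists. A second site with summits in all 4 libraries, 36.4 kb beyond the gene end (chr12:38906831-38906930), had 6.64 in Paupar KD and 6.62 in control KD (FDR 0.987) per the authors' deposited table. At these 2 strong Etv1 sites the group means differed by 0.06 and 0.02 on the log2 scale.

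The called Etv1 site (chr12:38929114-38929213), 58.7 kb beyond the gene end, had 6.67 in Paupar KD and 5.39 in control KD, a log2 change of 1.28 (p = 0.000474, FDR 0.0198), per the authors' deposited table. Summits scored 60.9 and 85.6 in the Paupar KD libraries and 22.8 in control KD replicate 1, and control KD replicate 2 had none. It was the only called member site with a control KD summit. An intron site (chr12:38793847-38793946) lay just outside the threshold, with 4.95 in Paupar KD and 2.35 in control KD (FDR 0.0503) per the authors' deposited table, and had summits in both Paupar KD libraries alone. The site printed above in capitals (chr12:38783578-38783677), 69 bases after the start of another Etv1 transcript in the authors' annotation, was listed at 4.33 in Paupar KD and at the floor, -0.01, in control KD (p = 0.00407, FDR 0.0728) per the authors' deposited table. Paupar KD replicate 1 alone had a summit there, 58 bases before the RefSeq start. The site nearest the first Etv1 start (chr12:38778737-38778836) went the other way, with 5.07 in Paupar KD and 5.80 in control KD (FDR 0.421), per the authors' deposited table. Of the 9 Etv1 sites, 6 had a change above 0 and 3 below, with a median of 1.28, or 0.65 without the site at the floor.

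**Figure D3:**
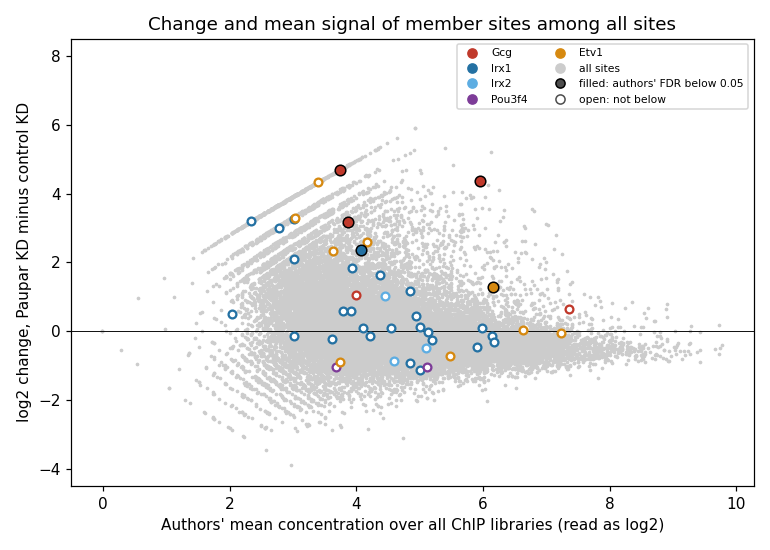
Grey points are the 26244 sites and coloured points the 45 member sites; the x axis is the authors' mean concentration over all ChIP libraries (read as log2) and the y axis the log2 change, Paupar KD minus control KD. Filled points have an authors' FDR below 0.05. The upstream Gcg site, with a change of 4.36, is among the higher points at its mean signal, while the strongest Irx1 and Etv1 sites lie near 0.

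Irx1, an Iroquois factor, lies on the minus strand of chromosome 13 (71958232 to 71963723) and had the most member sites. Of its 26 sites, 19 lay before the gene, 6 beyond its end and 1 inside it. Concentrations ran between 2.26 and 6.07 in Paupar KD and between -0.01 and 6.33 in control KD. The change was above 0 at 16 sites and below 0 at 10, with a median of 0.11. The called site (chr13:72224597-72224696), 261 kb before the start, had 4.81 in Paupar KD and 2.46 in control KD, a log2 change of 2.35 (p = 0.00202, FDR 0.0485), per the authors' deposited table. It was the member site just inside the threshold, and its summit was found in Paupar KD replicate 2 alone, with a score of 13.9.

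The strongest Irx1 site (chr13:72061811-72061910), 98.1 kb before the start, had 6.02 in Paupar KD and 6.33 in control KD (FDR 0.729) per the authors' deposited table. Near in strength was a site 6.6 kb beyond the RefSeq gene end (chr13:71951585-71951684), with 6.07 in Paupar KD and 6.20 in control KD (FDR 0.901) per the authors' deposited table. So was another 302 kb before the start (chr13:72265918-72266017), with 6.02 and 5.94 (FDR 0.945) per the authors' deposited table. These sites and 2 more, at 94.8 kb before and 225 kb after an annotated start, had summits in all 4 libraries, and their changes lay between -0.45 and 0.08. The site inside the gene (chr13:71958455-71958554) had 4.34 in Paupar KD and 5.46 in control KD (p = 0.0503, FDR 0.286) per the authors' deposited table, with a summit in control KD replicate 2 alone. Nearest the RefSeq start was a site 4.61 kb before it (chr13:71968280-71968379), with 5.15 in Paupar KD and 4.70 in control KD (FDR 0.755), per the authors' deposited table.

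Split by distance after their values were seen, the 20 Irx1 sites beyond 10 kb from the annotated start had a median change of 0.545, with 14 above 0. The 6 nearer sites had a median of -0.085, with 2 above 0. Over all listed sites, 48.5% were above 0. Summits in Paupar KD libraries alone were found at 9 of the 20 distant sites and 0 of the 6 nearer ones, against 37.8% of all sites. This split has no test, and it depends on the start used. The sites chr13:71949770-71949869 and chr13:71951585-71951684, counted as nearer, lay 13.9 and 12.1 kb from the RefSeq start. The distant sites were weaker in control KD, with a median of 3.535 against 5.04 for the near ones, and had medians of 4.255 and 5.09 in Paupar KD. One Irx1 site (chr13:71654109-71654208) was listed at 3.19 in Paupar KD and at the floor, -0.01, in control KD per the authors' deposited table. Another 2 upstream sites, 64.7 kb and 173 kb before the start, were near the floor in control KD, at 0.61 each, with 3.61 and 3.88 in Paupar KD (FDR 0.212 and 0.13), per the authors' deposited table. Their summits were found in Paupar KD replicate 1 only. The site at the floor and a weaker one (chr13:72121011-72121110, 2.26 in Paupar KD and 1.76 in control KD per the authors' deposited table) were among the sites outside the authors' adjustment, with an FDR of 1.

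Irx2, the neighbouring Iroquois gene on chromosome 13 (72624430 to 72634196), had 3 sites, all beyond its end and none called. The nearest to the gene (chr13:72635064-72635163), 0.917 kb past it, had 4.89 in Paupar KD and 3.86 in control KD (FDR 0.42) per the authors' deposited table; Paupar KD replicate 2 alone had a summit. The next (chr13:72636506-72636605) had 4.11 in Paupar KD and 4.97 in control KD (FDR 0.478) per the authors' deposited table, with a summit in control KD replicate 1 alone. The strongest (chr13:72639738-72639837) had 4.84 in Paupar KD and 5.32 in control KD (FDR 0.675) per the authors' deposited table, and no summit within 250 bp.

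Ordered by the Paupar KD concentration, per the authors' deposited table, of the site with the highest mean, the genes stood as Gcg (7.64), Etv1 (7.20), Irx1 (6.02), Irx2 (4.84) and Pou3f4 (4.51). In control KD the values were 7.01, 7.26, 6.33, 5.32 and 5.55 in the same order, so Etv1 led there. Without values per library, whether neighbours in this order differ beyond their spread is unknown. The order takes 1 site per gene, from 26 at Irx1 but 2 at Pou3f4, with no adjustment for the number of sites.

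Summits of single libraries give the replicate view that the concentrations lack. Of the 45 sites, 28 and 27 had a summit within 250 bp in Paupar KD replicates 1 and 2, and 21 and 15 in control KD replicates 1 and 2. The summit list of control KD replicate 2 carries the number 3 in its own name and was taken as replicate 2 from its sample record. The means were 27.5 ± 0.707 in Paupar KD and 18 ± 4.24 in control KD (SD, n = 2 each; exact permutation test, two-sided, p = 0.33, which is the lowest value 2 against 2 libraries can give). Over all listed sites the ratio of means was 1.39, and over the member sites it was 1.53. The lists themselves held 15611 and 17942 summits in Paupar KD and 14311 and 9983 in control KD, and the part of this difference in the counts was not tested. With 9983 top-scored summits taken from every library, the counts over member sites were 20 and 21 in Paupar KD, and 19 and 15 in control KD.

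A summit in Paupar KD libraries and in no control KD library was found at 18 of the 45 sites, 40.0%, against 37.8% of all sites. Of these, 8 rested on Paupar KD replicate 1, 6 on Paupar KD replicate 2 and 4 on both libraries. Of the 9908 such sites in the whole list, 3404 rested on replicate 1, 4337 on replicate 2 and 2167 on both. Summits in control KD libraries alone were found at 6 sites, 13.3%, against 15.8% of all sites, and at none of these in both libraries. Of the 4155 such sites in the whole list, 385 had both. The count of 18 was 11 with equal numbers of top-scored summits and 10 without Paupar KD replicate 1, and the count of 6 was 1 without control KD replicate 1. The shares of all sites under these settings were not worked out, so these counts have no background. The change was above 0 at all 18 sites with Paupar KD summits alone, against 76.3% of the 9908 such sites in the whole list. It was below 0 at all 6 with control KD summits alone, against 3409 of the 4155 such sites. Summits and concentrations come from the same libraries, so these directions partly restate one measure with another. The 8 sites with summits in all 4 libraries had a median change of -0.1 and no call, where all 5250 such sites had a median of -0.29 with 94 called higher and 127 lower. They were the start site of Gcg, 2 Etv1 sites and 5 Irx1 sites.

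**Figure D4:**
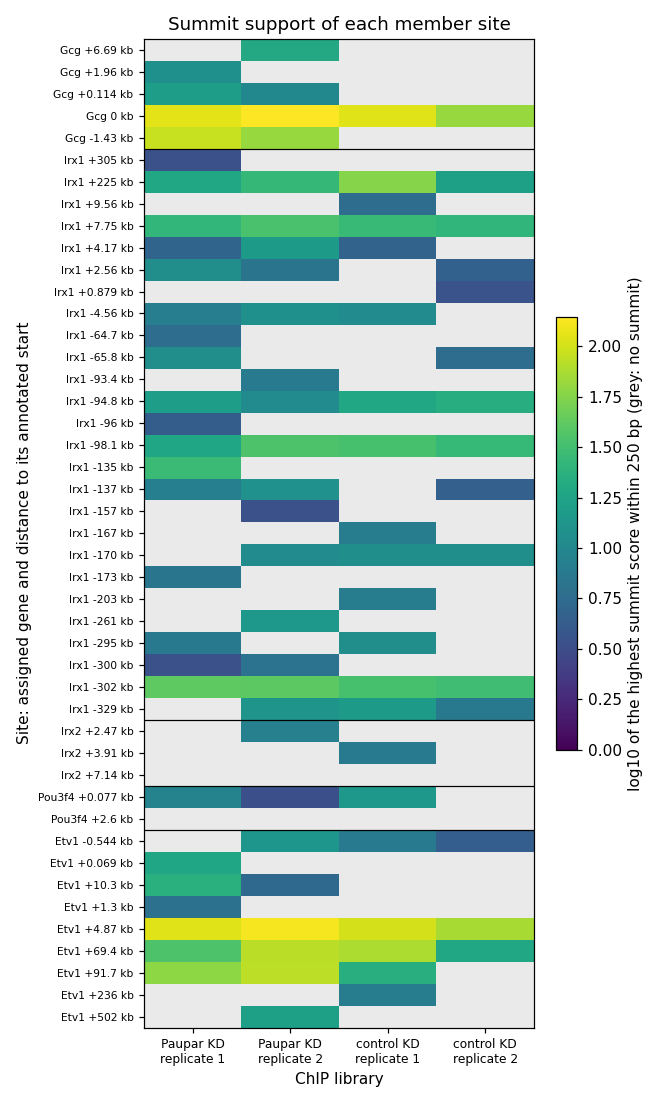
Rows are the 45 member sites with the distance to the annotated start in kb, columns the 4 ChIP libraries, and the colour is log10 of the highest summit score within 250 bp; grey means no summit. Colours are to be read within a column, since lists differ in length. The start site of Gcg and the Etv1 site at 4.87 kb have a bright cell in every column, and 18 rows have cells in Paupar KD columns alone.

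By quartile of mean signal over all sites, lowest to highest, 7 of 8, 11 of 15, 5 of 12 and 5 of 10 member sites had a change above 0. Over all sites the shares were 69.8%, 59.2%, 42.3% and 22.3%, a steady fall. With 12 and 10 member sites, the upper quartiles were too small to tell whether the members followed it there. With the median of all sites in the same quartile taken off, the median change of the member sites was 0.39, against 0.45. This is a description, and the part of signal strength in the member results was not tested. Of the 5 called sites, 3 lay in the second quartile and 2, the upstream Gcg site and the Etv1 site, in the highest.

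Other genes of alpha cells were read from a list of 27 genes, of which 22 had a site. Of their 81 sites, 4 were higher and 0 lower at an FDR below 0.05 per the authors' deposited table (4.94%, against 3.26% higher over all sites). At an unadjusted p below 0.05, 14 were higher and 7 lower (17.3% higher, against 10.7% higher and 6.67% lower over all sites). The median change was -0.01. Among the called sites were 1 at Gpr119, a lipid-sensing receptor gene (4.69 in Paupar KD and 0.55 in control KD, FDR 0.0104), and 1 at Meis1, a homeodomain factor gene (4.75 and 1.55, FDR 0.0394), per the authors' deposited table.

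Close relatives of the members, Irx3 to Irx6, the POU genes Pou3f1 to Pou3f3, Etv4 and Etv5, had 18 sites at 7 of the 9 genes. Of these, 1 was higher and 0 lower at an FDR below 0.05 per the authors' deposited table (5.56%, against 3.26% higher over all sites). At an unadjusted p below 0.05, 1 was higher and 1 lower (5.56% higher, against 10.7% higher and 6.67% lower over all sites). The median change was 0.13. The called site, 172 kb before Irx3, had 7.65 in Paupar KD and 6.45 in control KD (FDR 0.00162) per the authors' deposited table, with summits in all 4 libraries. Markers of beta cells had 24 sites at 6 of 10 genes, with 5 higher and 0 lower at an FDR below 0.05 per the authors' deposited table (20.8%, against the same 3.26%). At an unadjusted p below 0.05, 10 were higher and 2 lower (41.7% higher, against 10.7% over all sites). The median change of the 24 sites was 0.375 (0.2 without sites at the floor). The sites with an FDR below 0.05 were at G6pc2, Iapp and Nkx6-1, and at 2 sites of Slc30a8. The Nkx6-1 site, 140 kb from the annotated start, was at the floor in control KD (4.36 in Paupar KD and -0.01 in control KD). Its summit was found in Paupar KD replicate 1 alone. The G6pc2 site and the Iapp site, 8.78 kb before the annotated start, had summits in both Paupar KD libraries alone. Both Slc30a8 sites had summits in Paupar KD and control KD libraries. The delta-cell genes Sst and Hhex had 1 site each, with 0 called per the authors' deposited table. Both, 2 sites only, were higher at an unadjusted p below 0.05, against 10.7% over all sites. The Sst site was at the floor in control KD (3.94 in Paupar KD and -0.01 in control KD), and no library had a summit within 250 bp of it. Binding near these genes does not show which cell types the cultures held.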

How the data were processed

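Results come from the 4 Pax6 ChIP libraries, and the 4 inputs were not used here. The build mm10 and the tools, namely ChIPseeker, DiffBind, MACS2 and Bowtie2 with no version, are as per the submitters' processing notes. How DiffBind scaled the libraries, which of its tests was run and whether inputs were subtracted is not given in the sources used here. For each 100 bp site, the deposited table gives group mean concentrations and a fold, read as log2 values from the authors; the fold equalled the difference of concentrations within 0.011 at every site. The deposited p-value and FDR are the authors' own. Summit scores, deposited per library, were read as −log10 q, with a lowest value of 2.0. Read depth is unknown, and no interval that needs it was given.

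Sites were taken by symbol, and summits within 250 bp of a site's middle counted as support. Called means an FDR below 0.05; a concentration at or below 0 is called the floor, and no fold is given there. Coordinates are 1-based. No genome was used, so motifs were searched in RefSeq promoter windows; the TAAT core was added after the data were seen. Every Gcg site was described in full; of the other members, the strongest site, the one nearest the start, every called site and those just inside and outside the threshold. The permutation test is over libraries. Members, lists and rules were chosen with earlier results of these data known. Tools were Python 3.11.15, numpy 2.4.6, pandas 2.3.3 and matplotlib 3.10.9. Some called sites of the alpha-cell list are not reported here by name. Alternatives were other thresholds, summit distances and scores, and leaving out each library.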

Additional observations from a re-analysis of the deposited data

How the results depend on the processing

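With the authors' FDR below 0.01 in place of 0.05, 0 member sites were called higher in the DiffBind results of the deposited table, against 5 (1.39% of all sites at 0.01). At an unadjusted p below 0.05 there were 16 higher and 1 lower (10.7% and 6.67% of all sites). An FDR below 0.1 gave 7 higher (4.99% of all sites). Leaving out sites at the floor, or sites over 100 kb from the annotated start, gave 4 each. These settings gave 0 lower. The shares of all sites called without floor sites, or within 100 kb, were not worked out, so the counts of 4 have no background. The median log2 change was 0.11 without sites at the floor, against 0.45. Sites with summits in Paupar KD libraries alone numbered 11, against 18, with equal numbers of top-scored summits. Leaving out each library in turn gave 10 to 23 such sites, with 10 without Paupar KD replicate 1, and 1 to 9 sites with control KD summits alone, with 1 without control KD replicate 1. For these summit counts, the shares of all sites under the same settings were not worked out. The difference in supported sites per library, 9.5, was 3.5 with equal numbers of top-scored summits and ranged from 6.5 to 12.5 with a library left out. As a replicate block it was also 9.5 (exact p = 0.5, the smallest 2 pairs allow); nothing in the labels says that the replicate numbers pair the libraries, and the concentrations, given as group means, could not be refitted with a block or without a library. Over all 45 sites, the number of libraries with a summit stayed the same at 33 with summits within 100 bp, at 38 within 500 bp, at 35 with a score of at least 5 and at 31 with equal numbers of summits. Within 100 bp, the Gcg start site had 3 libraries in place of 4, the site beyond the Gcg gene end 0 in place of 1, the Pou3f4 start site 2 in place of 3 and the site nearest the first Etv1 start 0 in place of 3.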

Other observations

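Some summits near the member genes matched no listed site within 250 bp. Beyond the Gcg gene end, Paupar KD replicate 1 had a summit at position 62473443 of chromosome 2 with a score of 46.1, in the top 7.79% of its list. Control KD replicates 1 and 2 had summits farther from the gene, at 62473099 and 62472998, with scores of 5.91 and 6.01. At the first Etv1 start, Paupar KD replicate 1 had a summit 37 bases after the start with a score of 19.5 and no listed site within 1333 bp. Around the strongest Irx2 site, which had no summit within 250 bp, every library had one between 252 and 405 bp away, with scores of 7.4 and 15.4 in Paupar KD replicates 1 and 2 and 5.41 in control KD replicate 2. Control KD replicate 1 had 2 there, with scores of 6.85 and 6.11.

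Between the last Irx1 site and the first Irx2 site, 9 further sites were all assigned to the predicted gene Gm20554, and so were not counted to either Iroquois gene. Their concentrations ran between 3.69 and 8.11 in Paupar KD and between 1.37 and 8.59 in control KD in the authors' deposited table. None was called; the lowest FDR among them was 0.18 in the authors' deposited table.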
